A study of Mus musculus with 12 samples.

Results

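Genes of the NADPH oxidases and of inducible nitric oxide synthase were examined in mouse colon with and without colitis. The members were the 10 genes whose name in the deposited gene table was Duox1, Duox2, Duoxa1, Duoxa2, Nox1, Noxo1, Noxa1, Cybb, Cyba or Nos2. The table lists 54532 genes, of which 24102 passed the filter on low values, and all 10 members were among them. Polyadenylated RNA of colon was sequenced from 12 mice, and the 4 groups held 3 libraries each. Tmem173fl/fl mice have loxP-flanked alleles of Tmem173, the gene of STING, and are labelled WT. Tmem173iΔmye mice carry the same floxed alleles together with Lyz2-CreERT2, a tamoxifen-dependent Cre expressed from the Lyz2 locus in macrophages, monocytes and neutrophils, and are labelled CRE. By the methods of the study, both genotypes were on the C57BL/6N background, were 6 to 8 weeks old and received 5 injections of tamoxifen at 120 mg/kg. The groups named + DSS then drank 2.5 to 3% dextran sodium sulfate, which injures the colon epithelium and causes colitis, for 7 days, followed by 1 day of water, and the other groups drank water throughout.

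NADPH oxidases pass electrons from NADPH across a membrane to oxygen and so make superoxide or hydrogen peroxide. DUOX2 is the dual oxidase of gut epithelium and needs the maturation factor DUOXA2 to leave the endoplasmic reticulum, as DUOX1 needs DUOXA1. NOX1 is an oxidase of colon epithelial cells that works with the organiser NOXO1 and the activator NOXA1, whereas CYBB (gp91phox) is the catalytic chain of the phagocyte oxidase, and CYBA (p22phox) is the membrane partner of both NOX1 and CYBB. NOS2 makes nitric oxide from arginine in inflamed epithelium and in activated macrophages.

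Library totals ran from 13823237 to 18718915 counts. Tmem173 itself lay between 37.6 and 44.0 CPM (the count relative to library size, with TMM scaling) in Tmem173fl/fl + DSS libraries and between 23.8 and 47.8 CPM in Tmem173iΔmye + DSS libraries, and a difference was not detected (log2 change -0.28, SE 0.26, edgeR adjusted p 0.602). Lyz2, which carries the Cre in Tmem173iΔmye mice, stood between 150 and 277 CPM in untreated Tmem173fl/fl libraries and between 76.4 and 115 CPM in untreated Tmem173iΔmye libraries, without overlap (log2 difference -1.01, edgeR adjusted p 1, unadjusted p 0.000754). With DSS it stood between 336 and 505 CPM in Tmem173fl/fl and between 231 and 357 CPM in Tmem173iΔmye libraries, with overlap (log2 difference -0.54, edgeR adjusted p 0.266), so neither gene separated the DSS groups by genotype. Groups are named by their labels. Replicate 3 of each untreated group and replicate 5 of Tmem173iΔmye + DSS had the Xist and Y-linked counts of female mice, and no Tmem173fl/fl + DSS library did. Replicate 5 also stood apart in markers of distal colon, so the members' changes with DSS in Tmem173iΔmye mice and their differences between the DSS groups, where larger than their SE, are also given without it.

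Ranked by mean FPKM, which divides by gene length and so permits comparison between genes, Cyba was highest in untreated Tmem173fl/fl colon at 40.5 ± 11.5 FPKM, followed by Duox2 at 34.4 ± 4.55 FPKM (SD, n = 3 each). Noxa1 at 24.1 ± 5.66 FPKM, Nox1 at 14.5 ± 4.63 FPKM and Duoxa2 at 13.5 ± 1.84 FPKM came next. Cyba and Duox2 differed by less than the larger of their SDs, as did Nox1 and Duoxa2. Cybb at 5.50 FPKM, Nos2 at 2.60 FPKM and Noxo1 at 1.45 FPKM were lower, and Duoxa1 at 0.248 FPKM and Duox1 at 0.136 FPKM were the lowest members. In Tmem173fl/fl + DSS colon Cyba at 79.1 ± 8.64 FPKM and Duox2 at 63.6 ± 18.3 FPKM still led, and differed by less than the larger SD. Nox1 stood at 0.53 ± 0.40 FPKM in that group. In Tmem173iΔmye + DSS colon the order was different. Duox2 was then first at 128 ± 57.0 FPKM, before Duoxa2 at 70.6 ± 21.4 FPKM, Cyba at 63.0 ± 5.62 FPKM and Nos2 at 56.9 ± 19.6 FPKM. Among these last 3 genes, neighbours differed by less than the larger of their SDs, and Nox1 had fallen in rank to 2.91 ± 2.504 FPKM.

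**Figure D1:**
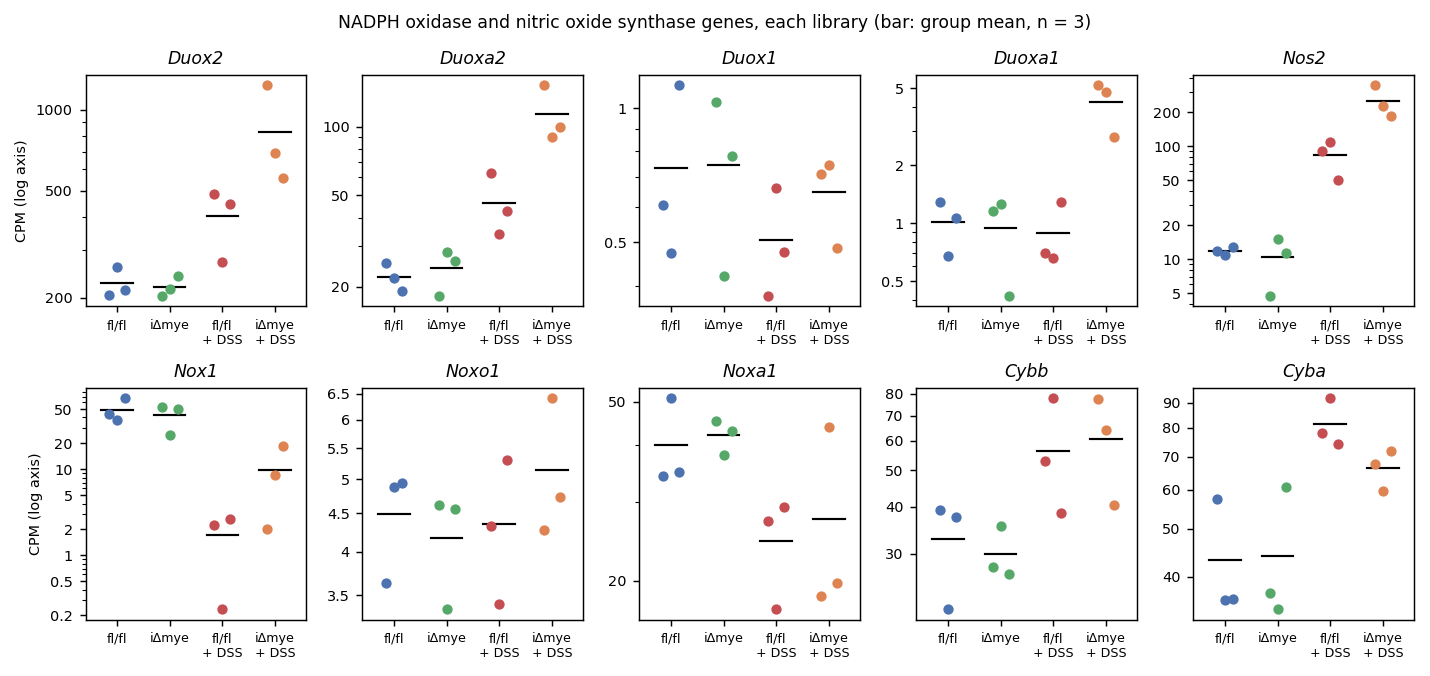
Each panel plots 1 gene, with CPM on a logarithmic axis of its own range against the 4 groups; points are libraries (replicates in the order given in the text) and bars are group means of 3 libraries. Duox2, Duoxa2 and Nos2 are highest in all 3 Tmem173iΔmye + DSS libraries, and Nox1 is lower in every DSS library than in every untreated library.

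The dual oxidase genes form 1 cluster on mouse chromosome 2 (GRCm38). Duox2 (chr2:122279247-122298165, minus strand) and Duoxa2 (chr2:122298900-122302885, plus strand) point away from each other with 734 bases between them, so that a single short interval holds both starts. Duoxa1 (chr2:122302191-122313730, minus strand) and Duox1 (chr2:122315672-122347972, plus strand) lie next to them in the mirrored arrangement, with 1941 bases between these 2 genes. Because Duox2, Duoxa2 and Duoxa1 were each highest in Tmem173iΔmye + DSS libraries, their RefSeq promoter windows (GRCm38.p6, from 250 bases before to 50 after the start) are given here, 5′ to 3′ on the strand of the gene. Of the 10 members, 9 had a window in the table. The Duox2 window is chr2:122298178-122298477 on the minus strand, the Duoxa2 window chr2:122298650-122298949 on the plus strand and the Duoxa1 window chr2:122313681-122313980 on the minus strand. Capitals mark a TATA box.
Duox2: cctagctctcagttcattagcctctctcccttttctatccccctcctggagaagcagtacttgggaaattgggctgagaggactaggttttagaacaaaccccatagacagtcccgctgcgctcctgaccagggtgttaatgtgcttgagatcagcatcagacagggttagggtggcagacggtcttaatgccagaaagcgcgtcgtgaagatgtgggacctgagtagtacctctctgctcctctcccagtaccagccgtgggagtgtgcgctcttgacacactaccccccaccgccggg
Duoxa2: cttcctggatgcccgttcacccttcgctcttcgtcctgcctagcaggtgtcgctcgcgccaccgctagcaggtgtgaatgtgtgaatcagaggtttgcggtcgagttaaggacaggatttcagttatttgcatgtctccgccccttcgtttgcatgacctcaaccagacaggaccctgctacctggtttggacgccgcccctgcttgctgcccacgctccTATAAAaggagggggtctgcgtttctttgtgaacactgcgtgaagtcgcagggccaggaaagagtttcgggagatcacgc
Duoxa1: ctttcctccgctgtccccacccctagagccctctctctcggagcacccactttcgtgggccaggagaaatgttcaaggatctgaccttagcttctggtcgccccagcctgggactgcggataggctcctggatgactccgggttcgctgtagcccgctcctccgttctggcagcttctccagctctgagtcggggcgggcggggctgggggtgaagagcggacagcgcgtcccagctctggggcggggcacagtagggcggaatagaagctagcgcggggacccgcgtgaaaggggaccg

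Both strands of each window were searched for a kappaB consensus, a STAT element (TTCNNNGAA), a C/EBP element (TTGCNNAA) and a TATA box (TATAAA). Duoxa2 held a TATAAA 30 bases before its start, a motif present in 13.6% of 32851 windows of the same length. Noxa1 held a kappaB match 249 bases and a C/EBP match 223 bases before its start, motifs present in 5.89% and 10.8% of all windows. None of the 4 motifs occurred in the windows of the other 7 members with an entry, and the STAT element, present in 8.3% of all windows, occurred in no member. The search describes these letters in these windows and does not bear on which factors act there.

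Duox2, the catalytic chain of the epithelial dual oxidase, stood at 204, 260.1 and 214.5 CPM in Tmem173fl/fl libraries 1, 2 and 3 and at 203, 215 and 242 CPM in Tmem173iΔmye libraries 1, 2 and 3. With DSS it stood at 488, 272 and 448 CPM in Tmem173fl/fl libraries 1, 2 and 3 and at 1237, 691 and 559 CPM in Tmem173iΔmye libraries 1, 2 and 5. The untreated groups overlapped, while each DSS group lay above its untreated group and the lowest Tmem173iΔmye + DSS library lay above the highest Tmem173fl/fl + DSS library. In Tmem173iΔmye mice Duox2 rose with DSS by 1.91 on the log2 scale (SE 0.29, edgeR adjusted p 0.0123). In Tmem173fl/fl mice the log2 change was 0.90 (SE 0.22, edgeR adjusted p 0.0091), which passed the test of a difference but fell short of the 2-fold size required for a call. Between the DSS groups the log2 difference was 1.04 (SE 0.35, edgeR adjusted p 0.148) and was not called. That difference was called in 3 of 12 alternative settings. These were DESeq2 (1.07, DESeq2 adjusted p 0.032), 1 fit of all 12 libraries (1.04, edgeR adjusted p 0.0316) and the replicate block (1.33, edgeR adjusted p 0.0299). The block rests on replicates 1 and 2 of each DSS group, because replicates 3 and 5 have no partner of the same number. The call in Tmem173iΔmye mice was lost when any untreated library of that genotype was left out, at an edgeR adjusted p between 0.106 and 0.116, with the log2 change between 1.86 and 2.02. Without replicate 5 of Tmem173iΔmye + DSS it was 2.17 (edgeR adjusted p 0.000438), and the difference between the DSS groups was 1.26 (edgeR adjusted p 0.104). Without replicate 1, the library with the highest Duox2, that difference was 0.61 (edgeR adjusted p 0.218).

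Duoxa2, the maturation factor of DUOX2, moved with it. It was found at 25.3, 21.7 and 19.1 CPM in Tmem173fl/fl libraries and at 18.2, 28.4 and 25.9 CPM in Tmem173iΔmye libraries. With DSS the values were 62.8, 34.1 and 42.7 CPM in Tmem173fl/fl mice and 152, 89.9 and 99.4 CPM in Tmem173iΔmye mice. As for Duox2, the DSS groups overlapped neither with the untreated groups nor with each other, and Tmem173iΔmye + DSS replicate 1 was the highest of the 12 libraries. Duoxa2 rose with DSS by 1.15 on the log2 scale in Tmem173fl/fl mice (SE 0.22, edgeR adjusted p 0.00266) and by 2.23 in Tmem173iΔmye mice (SE 0.26, edgeR adjusted p 0.00352). Without Tmem173fl/fl + DSS replicate 1 the first value was 0.85 (edgeR adjusted p 0.01) and no longer large enough for a call. Between the DSS groups the log2 difference was 1.29 (SE 0.29, edgeR adjusted p 0.0519), just outside the threshold. It was called in 4 of 12 alternative settings, over which it ran from 1.007 to 1.575. Without replicate 5 the change in Tmem173iΔmye mice was 2.35 (edgeR adjusted p 0.000384) and the difference between the DSS groups 1.37 (edgeR adjusted p 0.0689). The ratio of Duox2 to Duoxa2 in FPKM stayed between 1.4 and 2.98 over the 12 libraries, and Pearson's r between the genes on the scale of log2(CPM + 1) was 0.961 over the same libraries, as a description of points that share group and library.

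**Figure D2:**
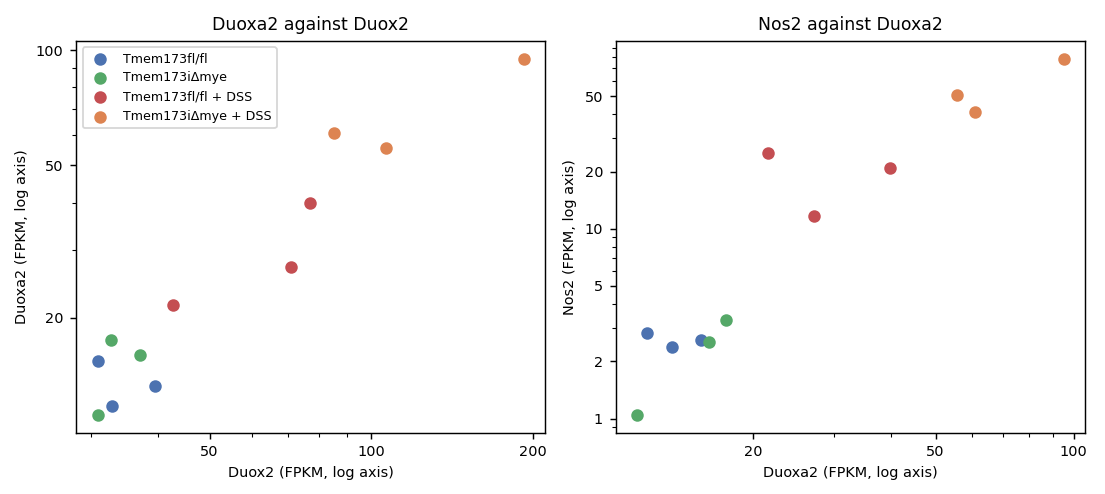
Points are the 12 libraries, coloured by group, with FPKM on logarithmic axes; the left panel sets Duoxa2 against Duox2 and the right panel Nos2 against Duoxa2. The 3 Tmem173iΔmye + DSS libraries hold the 3 highest values of each of these genes.

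Duoxa1, the maturation factor of DUOX1, was close to the lower limit of these data outside 1 group. It stood at 1.29, 0.68 and 1.06 CPM in Tmem173fl/fl libraries, at 1.15, 1.26 and 0.42 CPM in Tmem173iΔmye libraries and at 0.70, 0.66 and 1.29 CPM in Tmem173fl/fl + DSS libraries. In Tmem173iΔmye + DSS libraries it reached 5.202, 4.79 and 2.79 CPM, above every other library. The difference between the DSS groups was called, at 2.26 on the log2 scale (SE 0.43, edgeR adjusted p 0.0327). The call was lost without Tmem173fl/fl + DSS replicate 1, 2 or 3 (edgeR adjusted p 0.152, 0.118 and 0.0583) and without Tmem173iΔmye + DSS replicate 2 (0.105), held without replicate 5 (log2 difference 2.496, edgeR adjusted p 0.0271), while the log2 difference remained between 2.08 and 2.84 under all settings tried. The change with DSS in Tmem173iΔmye mice was 2.16 (SE 0.49, edgeR adjusted p 0.0516) and was not called. It was called in 6 of 12 alternative settings, among them the fit without replicate 5 (2.42, edgeR adjusted p 0.0101). Duoxa1 and Duoxa2 overlap on opposite strands, and 682 exonic bases are shared, which make up 42.8% of the exonic length of Duoxa2 and 17.1% of that of Duoxa1. As strand use in counting was not stated, reads of the shared stretch cannot be told apart. Duox1 stood between 0.38 and 1.13 CPM in all 12 libraries, with groups that overlapped throughout, and none of its changes exceeded its SE.

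Nos2 (chr11:78920787-78960254, plus strand) rose with DSS in both genotypes. The untreated libraries held 11.7, 10.8 and 12.8 CPM in Tmem173fl/fl mice and 4.73, 14.97 and 11.4 CPM in Tmem173iΔmye mice. With DSS they held 91.7, 110.0 and 50.5 CPM in Tmem173fl/fl mice and 349, 227 and 186 CPM in Tmem173iΔmye mice. No DSS library overlapped with an untreated one, and the DSS groups did not overlap with each other. The log2 change with DSS was 2.90 in Tmem173fl/fl mice (SE 0.27, edgeR adjusted p 2.97e-05) and 4.61 in Tmem173iΔmye mice (SE 0.43, edgeR adjusted p 0.000769), and both calls held in all 12 alternative settings of each comparison, with 4.82 in Tmem173iΔmye mice without replicate 5 (edgeR adjusted p 6.94e-05). Nos2 was higher by 1.59 on the log2 scale in Tmem173iΔmye + DSS than in Tmem173fl/fl + DSS mice (SE 0.34, edgeR adjusted p 0.0457). This last call was lost without Tmem173fl/fl + DSS replicate 1, 2 or 3 (edgeR adjusted p 0.16, 0.0702 and 0.0918) and without Tmem173iΔmye + DSS replicate 1 or 2 (0.0585 and 0.112), while it held without replicate 5 (log2 difference 1.77, edgeR adjusted p 0.0456).

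Nox1 (chrX:134086421-134221956, minus strand), the catalytic chain of the colon epithelial oxidase, fell with DSS in Tmem173fl/fl mice. The values were 43.6, 37.3 and 66.7 CPM in Tmem173fl/fl libraries and 53.1, 24.8 and 50.1 CPM in Tmem173iΔmye libraries. In Tmem173fl/fl + DSS libraries 2.28, 0.24 and 2.66 CPM remained, and in Tmem173iΔmye + DSS libraries 1.995, 8.52 and 18.9 CPM. The Tmem173fl/fl + DSS libraries lay far below the untreated ones, and the Tmem173iΔmye + DSS libraries were spread widely, from within the range of the Tmem173fl/fl + DSS libraries to 18.9 CPM in replicate 5. Nox1 fell by 4.82 on the log2 scale with DSS in Tmem173fl/fl mice (SE 0.57, edgeR adjusted p 0.000148), and the call held in all 12 alternative settings. In Tmem173iΔmye mice the log2 change was -2.12 (SE 0.61, edgeR adjusted p 0.118). It became a called fall of -2.99 (edgeR adjusted p 0.00541) when replicate 5 was left out. Between the DSS groups the log2 difference was 2.52 with a large SE of 0.90 (edgeR adjusted p 0.168), and 1.61 (edgeR adjusted p 0.366) without replicate 5. Exons of Cstf2 on the other strand share 12.1% of the exonic length of Nox1.

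Neither partner of NOX1 was called in any of the 5 comparisons, although Noxa1 was called in 1 alternative setting given here. Noxa1 (chr2:25085667-25095149, minus strand), the activator, stood at 34.2, 50.9 and 34.95 CPM in Tmem173fl/fl libraries and at 27.2, 17.3 and 29.2 CPM in Tmem173fl/fl + DSS libraries. These groups did not overlap, and the log2 change was -0.64 (SE 0.22, edgeR adjusted p 0.0504). In Tmem173iΔmye mice it stood at 45.4, 38.1 and 43.0 CPM without DSS and at 18.5, 43.9 and 19.7 CPM with DSS, where replicate 2 lay within the untreated range (log2 change -0.63, SE 0.32, edgeR adjusted p 0.381, and -0.42, edgeR adjusted p 0.464, without replicate 5). Without replicate 2 it was a called fall of -1.13 (edgeR adjusted p 0.0475), and without replicate 1 it was -0.41 (edgeR adjusted p 0.676). Between the DSS groups Noxa1 differed by 0.14 on the log2 scale, less than its SE of 0.35. Noxo1 (chr17:24696234-24700529, plus strand), the organiser, stood between 3.35 and 6.41 CPM in all 12 libraries, and none of its changes exceeded its SE. Exons of Tbl3 on the other strand share 70.4% of the exonic length of Noxo1, so its values are uncertain.

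Cybb (chrX:9435252-9487771, minus strand) and Cyba (chr8:122424776-122432930, minus strand), the membrane chains of the phagocyte oxidase, were higher with DSS in Tmem173fl/fl mice by less than the size for a call. Cybb stood at 39.2, 21.4 and 37.7 CPM in Tmem173fl/fl libraries and at 53.0, 77.7 and 38.5 CPM in Tmem173fl/fl + DSS libraries, with overlap between the lowest DSS library and the highest untreated one (log2 change 0.85, SE 0.29, edgeR adjusted p 0.0409). Without Tmem173fl/fl + DSS replicate 2 the change was 0.53 (edgeR adjusted p 0.135), and over 12 alternative settings the adjusted p ran from 0.00499 to 0.135. In Tmem173iΔmye mice it stood at 27.7, 35.5 and 26.6 CPM without DSS and at 77.5, 64.2 and 40.4 CPM with DSS, with no overlap (log2 change 1.02, SE 0.26, edgeR adjusted p 0.0794). Without replicate 5 this change was called, at 1.27 (edgeR adjusted p 0.0037). Between the DSS groups Cybb differed by 0.10 on the log2 scale (SE 0.31, edgeR adjusted p 0.896), and the sign turned under 2 of the settings but not without replicate 5 (0.32, edgeR adjusted p 0.599). Unlike Duox2, Duoxa2 and Nos2, Cybb thus had overlapping DSS groups. Cyba stood at 57.5, 35.9 and 36.1 CPM in Tmem173fl/fl libraries and at 78.0, 91.8 and 74.2 CPM in Tmem173fl/fl + DSS libraries, with no overlap (log2 change 0.98, SE 0.20, edgeR adjusted p 0.00316, just short of the size for a call). In Tmem173iΔmye mice Cyba stood at 37.1, 34.4 and 60.8 CPM without DSS and at 67.7, 59.7 and 71.8 CPM with DSS, with overlap (log2 change 0.58, SE 0.24, edgeR adjusted p 0.273, and 0.56, edgeR adjusted p 0.224, without replicate 5). Without untreated replicate 3, the library at 60.8 CPM, this change was 0.91 (edgeR adjusted p 0.16), and over the alternative settings it ran from 0.44 to 0.91. All 3 Tmem173iΔmye + DSS libraries lay below all 3 Tmem173fl/fl + DSS libraries for Cyba, with a log2 difference of -0.30 (SE 0.17, edgeR adjusted p 0.363, and -0.36, edgeR adjusted p 0.303, without replicate 5). That difference ran from -0.42 with the replicate block to -0.19 without Tmem173fl/fl + DSS replicate 2 (edgeR adjusted p 0.491 and 0.723). The block in effect drops replicates 3 and 5, which have no partner of the same number.

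A call required an edgeR adjusted p under 0.05 and a log2 change of at least 1 in size. For DSS in Tmem173fl/fl mice, 2 members were called higher (Duoxa2 and Nos2) and 1 lower (Nox1), against 14.9% of all tested genes called higher and 7.61% called lower. The groups did not overlap for 6 of the 10 members, against 49.3% of all genes. The members' median log2 change was 0.43, against 0.03 over all genes. For DSS in Tmem173iΔmye mice, 3 members were called higher (Duox2, Duoxa2 and Nos2) and 0 lower, against 1.48% of genes called higher and 0.597% called lower, and 6 members did not overlap between groups, against 21.5% of genes. The median was 0.80, against 0.02 over all genes. These members were known to respond when they were chosen, so the counts describe them only.

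No member differed between the untreated genotypes beyond its error. The log2 differences ran from -0.20 to 0.14, all were smaller than their SE, no pair of groups was free of overlap, and edgeR called 0 members and 0% of all genes. At an unadjusted p under 0.05, edgeR found 0 members and 720 genes, and DESeq2 called 0 members and 3 genes. Without the filter edgeR called 68 genes, with the replicate block 94, and with single libraries left out 0 to 6, with 0 members in each. With DSS, 2 members were called higher in Tmem173iΔmye mice (Duoxa1 and Nos2) and 0 lower, against 0.822% and 1.99% of all genes, and 5 members did not overlap (Duox2, Duoxa2, Duoxa1, Nos2 and Cyba), against 26.8%. The median log2 difference was 0.69 for the members and 0.02 over all genes. This comparison shares its Tmem173fl/fl + DSS libraries with the DSS comparison in Tmem173fl/fl mice. It likewise shares its Tmem173iΔmye + DSS libraries with the DSS comparison in Tmem173iΔmye mice, so the counts are not independent.

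**Figure D3:**
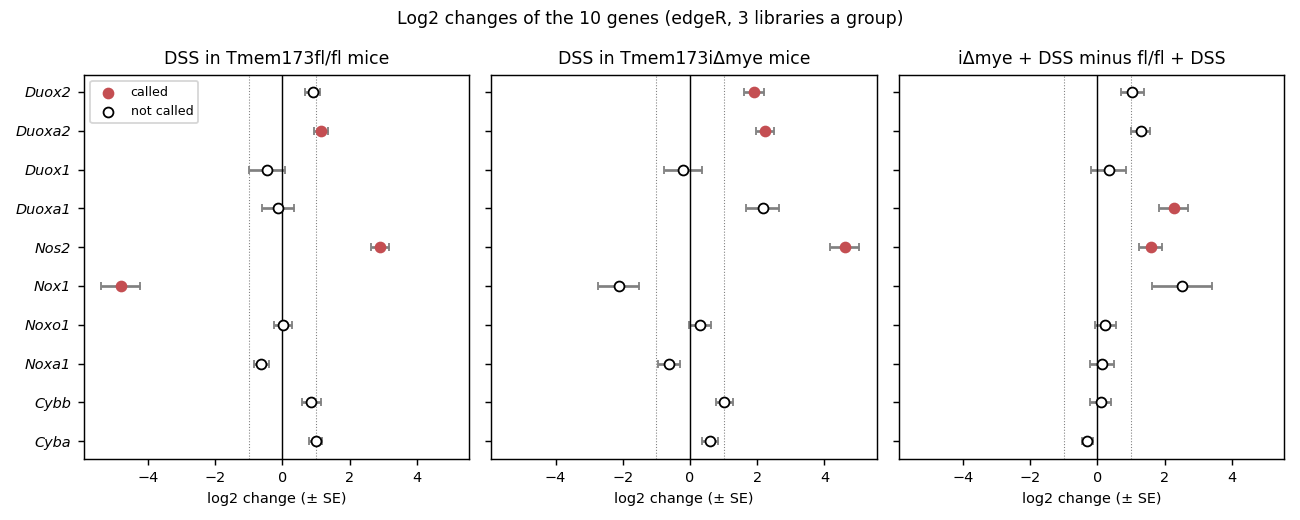
The horizontal axis gives the log2 change with its SE from edgeR for 10 genes in 3 comparisons; filled points were called and open points were not, and dotted lines mark a log2 change of 1 in either direction. Nox1 lies at -4.82 and Nos2 at 2.90 with DSS in Tmem173fl/fl mice, and Duoxa1 at 2.26 and Nos2 at 1.59 between the DSS groups.

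Whether DSS acted differently in the genotypes was tested by the interaction over all 12 libraries. It called 0 members, against 2.55% of all genes, while 5 of the 10 members and 4361 of all 24102 genes had an unadjusted p under 0.05. For Nos2 the interaction was 1.78 on the log2 scale (SE 0.52, edgeR adjusted p 0.0857), and for Duoxa1 it was 2.37 (SE 0.67, edgeR adjusted p 0.0764). For Duox2 it was 1.08 (SE 0.39, edgeR adjusted p 0.163), for Duoxa2 1.15 (SE 0.36, edgeR adjusted p 0.108) and for Nox1 2.75 (SE 0.96, edgeR adjusted p 0.151). The interaction of Nox1 ran from 1.69 without the female libraries (edgeR adjusted p 0.522) to a called 3.24 without Tmem173iΔmye + DSS replicate 1 (edgeR adjusted p 0.0232), and was 1.86 without replicate 5 (edgeR adjusted p 0.295). Without replicate 5 the interactions of Duox2, Duoxa2, Duoxa1 and Nos2 were 1.28, 1.22, 2.58 and 1.93, with edgeR adjusted p from 0.061 to 0.116. That of Duox2 was 0.67 without Tmem173iΔmye + DSS replicate 1 (edgeR adjusted p 0.205). The interactions of these 5 members were all above 0. The other 5 members had interactions smaller than their SE, from -0.32 to 0.35. DESeq2 called 2 members (Nos2 and Duoxa1), and edgeR without the filter called 2 (Nos2 and Nox1). The 2.55% of all genes belongs to edgeR with the filter, so these counts describe the members only. A difference between genotypes in the response to DSS was therefore not established for any member by edgeR with the filter over all 12 libraries.

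The make-up of the tissue moved with these groups. In bulk RNA fewer cells of a type and less RNA per cell cannot be told apart. Summed over 10 epithelial markers, the untreated libraries held 14360 to 18330 CPM, the Tmem173fl/fl + DSS libraries 5610 to 9719 CPM and the Tmem173iΔmye + DSS libraries 11640 to 14590 CPM, and 6 of the 10 markers fell with DSS in Tmem173fl/fl mice. The 10 neutrophil markers summed to 46.7 to 106 CPM without DSS, to 471 to 786 CPM in Tmem173fl/fl + DSS libraries and to 210 to 330 CPM in Tmem173iΔmye + DSS libraries. The 10 macrophage and monocyte markers summed to 290 to 420 CPM, 903 to 1176 CPM and 418 to 772 CPM in the same order. Ly6g weighs heavily in the neutrophil sums, with means of 154 CPM in Tmem173fl/fl + DSS and 186 CPM in Tmem173iΔmye + DSS libraries. Of the 10 neutrophil markers, 6 were called lower in Tmem173iΔmye + DSS, against 1.99% of all genes, and the median log2 difference was -2.74. Of the 10 macrophage and monocyte markers, 1 was called lower (Mrc1), against the same 1.99%, with a median of -0.64. Ccr2 (0.56, without overlap) and Adgre1 (0.02) went the other way. Of the 10 epithelial markers, 0 were called between the DSS groups, with a median of 0.78 and Cdx2 at -0.15. Duox2, Duoxa2 and Nos2 were thus highest in the group with higher epithelial and lower myeloid marker sums than Tmem173fl/fl + DSS. Nox1 was lowest on average in Tmem173fl/fl + DSS, the group with the lowest epithelial sums. Tmem173iΔmye + DSS replicate 1, the library with the highest Duox2, Duoxa2 and Nos2, also had the highest sum of 4 B cell markers. It held 204 CPM, against 18.2 and 80.9 CPM in replicates 2 and 5 and 24.3 to 133 CPM in Tmem173fl/fl + DSS libraries. The part of tissue make-up in the differences was not tested.

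Per 1000 CPM of epithelial markers, a scale chosen after the values were seen, Nox1 was at 1.45 to 4.65 in untreated libraries, 0.0422 to 0.307 in Tmem173fl/fl + DSS libraries and 0.172 to 1.33 in Tmem173iΔmye + DSS libraries. On that scale no DSS library of either genotype lay within the untreated range of Nox1. Duox2 on the same scale was at 46.1 to 65.9 in Tmem173fl/fl + DSS libraries and at 39.3 to 106 in Tmem173iΔmye + DSS libraries, so that the DSS groups overlapped, and at 11.3 to 15.3 in untreated libraries, below every DSS library. Nos2 on the same scale was at 5.19 to 19.6 and at 13.1 to 30 in the DSS groups, with overlap as well, and at 0.308 to 0.89 in untreated libraries, again below every DSS library.

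Genes known to mark distal colon also differed between the groups. The 4 genes (Hoxa13, Hoxb13, Hoxd12 and Hoxd13) summed to 179 to 397 CPM in untreated libraries and to 21.0 to 36.4 CPM in Tmem173fl/fl + DSS libraries. Tmem173iΔmye + DSS replicates 1 and 2 held 79.6 and 87.7 CPM, and replicate 5 held 462 CPM, the highest of the 12 libraries. Replicate 5 was also the DSS library with the highest Nox1, and the only DSS library of female pattern. Sex and distal colon markers cannot be told apart in that library. A change of these genes with DSS and a difference in the sampled stretch cannot be told apart here, and their part in the fall of Nox1 was not tested.

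**Figure D4:**
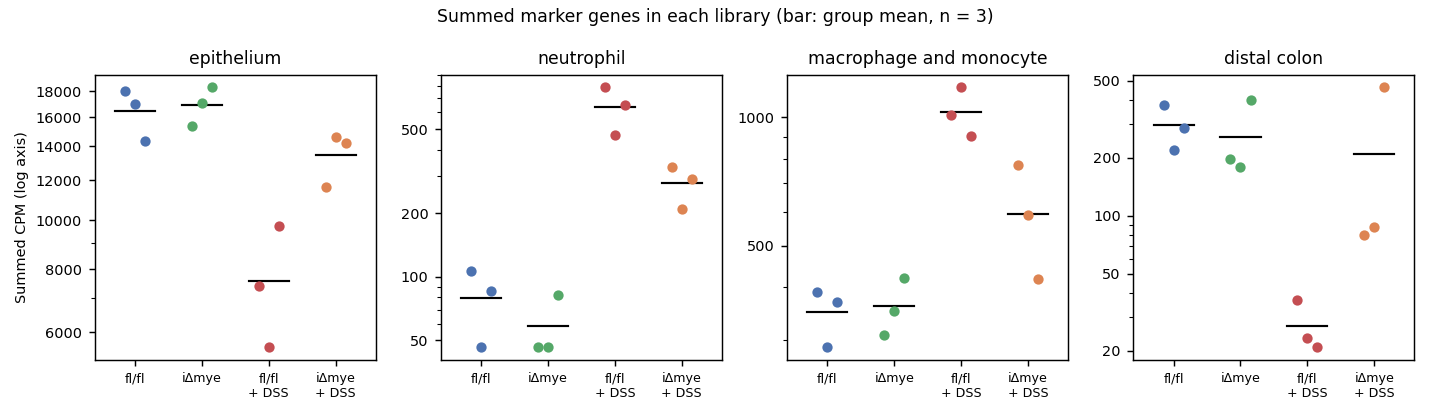
Each panel gives the summed CPM of 1 marker list on a logarithmic axis of its own range, with 3 libraries per group as points and the group mean as a bar. Epithelial sums are lowest (5610 to 9719 CPM), neutrophil sums highest (471 to 786 CPM) and distal colon sums lowest (21.0 to 36.4 CPM) in Tmem173fl/fl + DSS libraries.

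The genes most like 4 of the members were listed by Pearson's r of log2(CPM + 1) over the 12 libraries, among 12056 genes. For Duox2 they were Duoxa2 (0.961), Mfsd2a (0.95), Tnfrsf1b (0.948), Tat (0.937) and Trim15 (0.935). For Nox1 they were Acss2 (0.99), Lgals12 (0.988), Prkar2a (0.982), Prdx2 (0.98) and Acsm3 (0.979). For Cybb they were Mpeg1 (0.948), Cd84 (0.944), Lpxn (0.935), March1 (0.934) and Clec4a3 (0.926), of which Mpeg1 is a macrophage gene. For Nos2 they were C3ar1 (0.947), Duoxa2 (0.939), Tbxas1 (0.926), Tmem184c (0.926) and Adamtsl3 (0.925). Between members, Nos2 went with Duox2 (r = 0.896) and Cybb (r = 0.832), while Nox1 went with Noxa1 (r = 0.716) and against Cybb (r = -0.797). The points are libraries of 4 groups and are not independent, so these values describe the pattern only.

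Genes that work beside the members were taken from a list of 29 genes in the table, of which 26 passed the filter and 3 (Nox3, Mpo and Epx) did not. With DSS in Tmem173fl/fl mice 9 of the 26 rose and 1 fell, and in Tmem173iΔmye mice 2 rose and 0 fell. Of all tested genes, 14.9% were called higher and 7.61% lower in Tmem173fl/fl mice, and 1.48% and 0.597% in Tmem173iΔmye mice, so the counts of the genotypes are not to be compared directly. The edgeR adjusted p of these genes ran from 8.23e-07 for Sod3 to 0.0166 for Ncf4 in Tmem173fl/fl mice and were 0.0211 for Sod3 and 0.023 for Slc7a2 in Tmem173iΔmye mice. The median log2 change over the list was 0.44 in Tmem173fl/fl mice and 0.27 in Tmem173iΔmye mice. Without DSS, 0 genes of the list were called between genotypes, as were 0 of all tested genes. Groups without overlap were seen for Nos3 (log2 difference 0.87, edgeR unadjusted p 0.0261) and Sod1 (0.44, edgeR unadjusted p 0.0135), neither of them called. Over all tested genes, 720 had an edgeR unadjusted p under 0.05 in this comparison. The share of all genes without overlap was not counted for it, so these 2 genes describe the list only.

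Of the 6 genes for cytosolic subunits and the chaperone of the phagocyte oxidase, 2 rose in Tmem173fl/fl mice, and these were Ncf1 (p47phox, log2 change 1.69) and Ncf4 (p40phox, 1.14). In Tmem173iΔmye mice 0 of the 6 were called, where the log2 change was 1.23 for Ncf1 and 0.97 for Ncf4 (edgeR adjusted p 0.112 and 0.147). The interaction was -0.39 for Ncf1 and -0.09 for Ncf4 (edgeR adjusted p 0.691 and 0.955). The call of Ncf4 in Tmem173fl/fl mice held in 8 of 12 alternative settings and was lost without Tmem173fl/fl replicate 2 (1.04, edgeR adjusted p 0.0615), Tmem173fl/fl replicate 3 (0.99, edgeR adjusted p 0.0738) or Tmem173fl/fl + DSS replicate 2 (0.72, edgeR adjusted p 0.0549). All 3 tested genes of the other oxidases and synthases rose in Tmem173fl/fl mice, with log2 changes of 1.71 for Nos1 (neuronal synthase), 3.17 for Nos3 (endothelial synthase) and 2.61 for Nox4. Nos3 was lower in Tmem173iΔmye + DSS than in Tmem173fl/fl + DSS mice (log2 difference -1.44, edgeR adjusted p 0.0319), the opposite direction to Nos2. That call held in 6 of 12 alternative settings and was lost without replicate 5 (-1.31, edgeR adjusted p 0.0535), replicate 2 of the same group (-1.33, edgeR adjusted p 0.11) or any 1 of the Tmem173fl/fl + DSS libraries (edgeR adjusted p 0.0778 to 0.151).

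Of 4 genes that supply arginine, the substrate of NOS2, 1 was called higher with DSS in each genotype. Slc7a2, a carrier of arginine, had log2 changes of 2.15 and 2.27 in Tmem173fl/fl and Tmem173iΔmye mice. The second was 1.78 without replicate 5 (edgeR adjusted p 0.00905). Its call held in 8 of 12 alternative settings and was lost without any 1 of the untreated Tmem173iΔmye libraries (edgeR adjusted p 0.102 to 0.162) and without the female libraries (edgeR adjusted p 0.0673). Ass1 and Asl were higher with DSS in Tmem173fl/fl mice, without overlap, by less than the size for a call. Their log2 changes there were 0.91 and 0.85 (edgeR adjusted p 0.00337 and 0.001). With DSS in Tmem173iΔmye mice they were -0.08 and 0.006 (edgeR adjusted p 0.882 and 0.993). Neither was called between the DSS groups, at -0.81 and -0.66 (edgeR adjusted p 0.0472 and 0.086), while Slc7a2 was at 0.53 and Slc7a1 at -0.08. Of the 5 genes of tetrahydrobiopterin, a cofactor of NOS2, 0 were called in any comparison. Of the 3 peroxidases Mpo, Epx and Lpo, Lpo alone passed the filter, and it was not called in any of the 5 comparisons. Lpo averaged 11.9 CPM over the Tmem173fl/fl + DSS libraries and 31.4 CPM over those of Tmem173iΔmye + DSS, without overlap (log2 difference 1.40, SE 0.38, edgeR adjusted p 0.0882).

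Among the 7 genes that remove superoxide and hydrogen peroxide, DSS in Tmem173fl/fl mice raised Sod3 (extracellular superoxide dismutase, log2 change 3.94), Gpx3 (3.68) and Sod2 (mitochondrial superoxide dismutase, 1.43) and lowered Gpx2, the glutathione peroxidase of gut epithelium (-1.57). Sod3 also rose in Tmem173iΔmye mice (1.56, and 1.799 without replicate 5), a call that held in 9 of 12 alternative settings and was lost without any 1 of the untreated Tmem173iΔmye libraries (edgeR adjusted p 0.127 to 0.159). Between the DSS groups, the log2 difference was -2.30 for Sod3, -2.16 for Gpx3 and -1.08 for Sod2, all lower in Tmem173iΔmye mice (edgeR adjusted p 0.0137, 0.0215 and 0.0237). These calls held in 10, 9 and 8 of 12 alternative settings, and without replicate 5 the values were -2.10, -1.89 and -1.07 (edgeR adjusted p 0.0199, 0.0216 and 0.0364). All 3 calls were lost without Tmem173fl/fl + DSS replicate 1 (edgeR adjusted p 0.0684, 0.0831 and 0.122) and without Tmem173iΔmye + DSS replicate 2 (edgeR adjusted p 0.0668, 0.0744 and 0.0932). Those of Gpx3 and Sod2 were also lost without Tmem173fl/fl + DSS replicate 2 (edgeR adjusted p 0.0536 and 0.0786), and that of Sod2 without replicate 3 of that group (edgeR adjusted p 0.0607). Their interactions with genotype were called, at -2.31 for Sod3, -2.44 for Gpx3 and -1.07 for Sod2 (edgeR adjusted p 0.0059, 0.0108 and 0.0146). Nos3 had a called interaction of -2.30 as well (edgeR adjusted p 0.013). Without the female libraries the call of Sod3 held, and those of Gpx3, Sod2 and Nos3 were lost (edgeR adjusted p 0.059, 0.068 and 0.0588). These settings for the related genes were chosen after seeing the data. Gpx2 was not called between the DSS groups, with 78.1 CPM in Tmem173fl/fl + DSS and 226 CPM in Tmem173iΔmye + DSS libraries on average, without overlap (log2 difference 1.53, SE 0.44, edgeR adjusted p 0.104). Its interaction was 1.78 (edgeR adjusted p 0.0868).

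**Figure D5:**
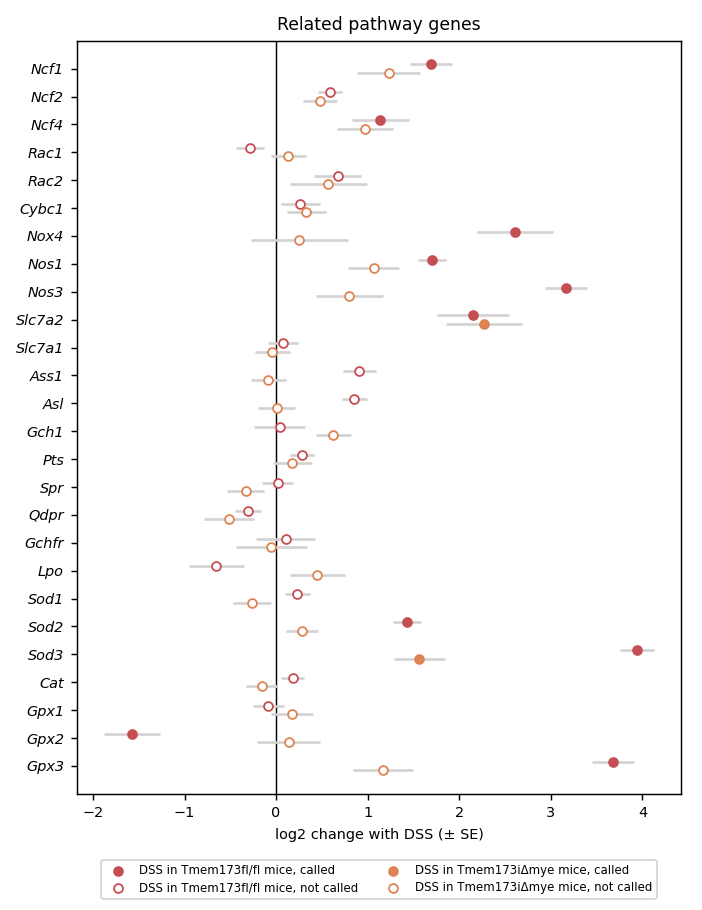
The horizontal axis gives the log2 change with DSS and its SE from edgeR for the 26 tested genes of the list, in Tmem173fl/fl mice (red) and Tmem173iΔmye mice (orange); filled points were called. In Tmem173fl/fl mice 9 genes rose, with Sod3 at 3.94 the highest, and 1 fell, against 14.9% and 7.61% of all genes, while 2 rose in Tmem173iΔmye mice, against 1.48%.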

How the data were processed

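The authors deposited whole-number counts per gene with FPKM values for 12 libraries. Per the labels, libraries were made from polyadenylated RNA with the NEBNext Ultra kit, and the submitters' processing notes name CASAVA 1.8, fastp, HISAT2 2.0.5, featureCounts 1.5.0-p3, DESeq2 1.20.0 and GRCm38; strand use was not stated. Deposited columns of group means, fold changes and p-values were not used. Counts were tested with edgeR 4.0.16 (glmQLFit and glmQLFTest, TMM scaling) in R 4.3.3 over the 24102 genes that reached 0.1 FPKM in 3 or more libraries, with Benjamini-Hochberg adjustment over all of them. Each pairwise fit used its own 6 libraries, and the interaction all 12. The fits were tested on simulated data, but no outcome of that check is given here. Alternatives were DESeq2 1.42.0, its size factors, no filter, adjusted p alone, a fit of all libraries, a replicate block, and leaving out single libraries or those of female pattern; for related genes they were added after the data were seen. All 10 members were read in each comparison, and most changes smaller than their SE are given as counts or ranges. Related genes are named if called, up to 4 per class; beside the 29 related genes counted in the report, 2 further genes chosen for that list are not reported here. Members and lists were chosen with earlier results of these data known. Replicates are separate mice. In pairwise block fits with Tmem173iΔmye + DSS, replicates 3 and 5 had no partner of the same number and did not inform the change.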

Additional observations from a re-analysis of the deposited data

How the results depend on the processing

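The member changes larger than their SE and that of Cybb between the DSS groups, 27 in all, were refitted 349 times. Of these refits 299 kept direction and side of the threshold, 13 lost the call, 35 gained it and 2 reversed, both for Cybb between the DSS groups (-0.10 without Tmem173fl/fl + DSS replicate 3 and -0.13 without Tmem173iΔmye + DSS replicate 1, within a range of -0.13 to 0.41). Of the 23 other changes, all smaller than their SE, 18 changed sign under some setting and 0 were ever called.

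For DSS in Tmem173fl/fl mice, 3 members were called, 6 by adjusted p alone and 2 to 5 with each library left out. Calls over all genes numbered 5422, 8544 and 4761 to 5568 in the same order. For DSS in Tmem173iΔmye mice, the 3 became 6 without the filter, 5 by DESeq2, 6 with the replicate block, 5 without the female libraries and 2 to 6 with each library left out. Over all genes, 501 calls became 1013, 1137, 1369, 625 and 51 to 1469 in the same order. For genotype with DSS, the 2 became 5 by DESeq2, 5 in 1 fit of all 12 libraries, 4 with the replicate block and 0 to 2 with each library left out. The 678 calls over all genes became 1619, 1492, 849 and 27 to 1593 in the same order. For the interaction, the 0 became 2 without the filter, 2 by DESeq2 and 0 to 1 with each library left out. Counts over all genes are not given beside these, which describe the members only. The causes were not tested. Deviations from the group means correlated from -0.195 to 0.211 for same-numbered libraries and from -0.468 to 0.343 for the others. No pairing by number was seen, but a check on 3 libraries per group cannot exclude it. With 3 libraries per group, Duox1, Duoxa1 and Noxo1 rest on few counts.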
